A study of Mus musculus with 8 samples.

Results

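The comparison set the first of 2 independent transfection experiments against the second, across all 8 arrays of the series: the 4 arrays numbered 1 in their titles against the 4 numbered 2, matched within cell line and duplex. The cells were 70Z/3, a mouse pre-B lymphoblast leukaemia line, and 18-81, a mouse pre-B line transformed by the Abelson leukaemia virus. Each line received 10 nM of a synthetic duplex, either pre-miR-125b (called miR-125b here) or the control miR-Neg, with a lipid reagent. The medium was replaced at 8 h and RNA was harvested at 48 h. Every group therefore had 1 array per experiment, and each of the 4 groups (70Z/3 with miR-Neg, 70Z/3 with miR-125b, 18-81 with miR-Neg, 18-81 with miR-125b) formed 1 matched pair. The study was designed to find targets of miR-125b, and the experiment number was its replication. The labels call the experiments independent and say no more about how they differed. The number is also the row of the slide, so experiment and slide row cannot be told apart in any value below.

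Cultures of one line that are set up separately can differ in density, medium, growth rate and handling, and each of these is known to move genes of replication, metabolism and stress. Most messenger RNAs carry a poly(A) tail, while the histone messages made during DNA replication end in a stem-loop and small nuclear RNAs have no tail. Transcripts of the mitochondrial genome are made inside the organelle and encode core subunits of the respiratory chain, whose other subunits come from nuclear genes.

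Values are log2 intensities minus the 75th percentile of their array, and a difference is always experiment 2 minus experiment 1. The values of the 4 arrays of an experiment are given in the order 70Z/3 miR-Neg, 70Z/3 miR-125b, 18-81 miR-Neg, 18-81 miR-125b. The average difference over the 4 pairs was tested with limma, with 1 probe per gene and Benjamini-Hochberg adjustment at 0.05 over 18772 genes, and a gene past that threshold is said to be called. An error after ± is the standard error of that fit.

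The sequences below are shown because they belong to probes of equal base composition that moved in opposite directions. At 35, 45 and 55% GC over the 60 bases of a probe, the called gene with the largest rise and the called gene with the largest fall were taken, and bases 31 to 60 of each probe are printed 5′ to 3′ with G and C in capitals, as the scanner files give them.
Pde5a: aGatCtttCtGaCaatCCaCatttttaaat
Ssh3: GtataGtatttGGCtttGtattGaGaaata
Slc49a4: CCaCCaatCCaaGCtCtGtatGGaGaatGt
Vamp1: GGtGttaGtCCttCtaCtttCtatCtCaCC
Nog: aCCttCtGCCCGGtGCtGtaCGCGtGGaat
Ppp1r32: GttGaCCCCttCtatCGaGaCatGCCtCat
The files place these probes, on build mm9, at chr3:122558949-122559008 (+ strand) for Pde5a, chr19:4261711-4261770 (- strand) for Ssh3, chr16:35695203-35695262 (- strand) for Slc49a4, chr6:125171818-125171877 (+ strand) for Vamp1 and chr11:89162849-89162908 (- strand) for Nog. The Ppp1r32 probe is given as chr19:10549016-10549437 (- strand), a stretch longer than the probe. The exons of that build were not used here. The printed bases of Pde5a and Ssh3 hold 26.7% GC each, and those genes differed by 3.95 and −2.33.

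Between 38.9 and 45.7% of the non-control spots were well above background on an array. In all 4 pairs the share was lower in experiment 2, by 2.18 to 4.16 percentage points, and so was the 75th percentile of intensity, at 0.658, 0.717, 0.819 and 0.787 times its level in experiment 1. The 10 E1A spike-in probes, which measure RNA added at labelling and not the cells, lay 0.70, 0.82, 0.20 and 0.95 higher in experiment 2 on the scaled axis, against 0.10, 0.34, −0.09 and 0.60 before scaling. The labelled cell type was borne by its markers on all arrays: 7 of 8 B-cell precursor markers, all but Rag1, were well above background on each of the 8 arrays. Of the markers of other cells, 5 to 7 of 8 T-cell, 4 to 6 of 7 myeloid, 1 to 2 of 5 erythroid and 1 to 2 of 6 stromal genes were above background on an array, in each experiment. Their summed levels ranged from 4.03 to 5.50 in experiment 1 and 4.48 to 7.10 in experiment 2 for the T-cell markers, and from 5.01 to 5.49 and 5.13 to 6.36 for the myeloid markers. For the erythroid markers the ranges were −2.22 to −1.53 and −1.65 to −1.36, and for the stromal markers −2.17 to 4.27 and −2.37 to 5.39. The T-cell marker Cd8a, the myeloid Cd14, the erythroid Hba-a1 and the stromal Col3a1, Dcn and Pdgfrb were among those not well above background on any array, and no probe carried the name Hbb-b1. The part of other cells in the differences was not tested, and in bulk RNA fewer cells of a type and less RNA per cell cannot be told apart.

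The experiments differed over a large share of the genes on average over the 4 pairs. Of the 18772 genes, 4821 (25.7%) were called, 3676 (19.6%) higher and 1145 (6.1%) lower in experiment 2. The median gene differed by 0.20 (0.27, 0.16, 0.21 and 0.23 in the 4 pairs), so gene groups are described relative to that median. The balance of directions changed with the normalization: after quantile normalization 944 genes were called higher and 1032 lower, the authors' series table gave counts of 928 and 1052, and removal of the GC trend gave 1163 and 1277, whereas median scaling gave 3330 and 1201. Larger differences were close to even, with 384 genes (2.05%) called more than 1 log2 unit higher and 337 (1.8%) more than 1 log2 unit lower. Relative to the median gene of each pair, 4186 genes (22.3%) lay above it in all 4 pairs and 4218 (22.5%) below it. In 2041 genes (10.9%) all 4 arrays of experiment 2 lay above all 4 of experiment 1, and in 725 (3.86%) all lay below. The number of calls depended on single pairs: no gene was called without either array of the 70Z/3 miR-Neg, 18-81 miR-Neg or 18-81 miR-125b pair (7503, 6046 and 5786 genes at an unadjusted p under 0.05, 2 residual degrees of freedom), and 2987 were called without either array of the 70Z/3 miR-125b pair.

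Pde5a, a phosphodiesterase that breaks down cyclic GMP, showed the largest rise. Its values were −3.23, −3.18, −2.46 and −2.35 in experiment 1 and 1.11, 0.34, 1.23 and 1.90 in experiment 2. The 2 experiments did not overlap in either line, and the average difference was 3.95 ± 0.18, a 15.4-fold ratio of intensities (limma, adjusted p = 0.012). Slc49a4, a transporter of the lysosome membrane, went from −3.12, −3.21, −2.24 and −2.91 to 0.54, −0.49, 0.59 and 1.08, again without overlap (3.30 ± 0.25, limma adjusted p = 0.027). Dlx3, a homeobox transcription factor, had −0.10, −0.45, 0.01 and −0.07 against 2.09, 1.15, 1.28 and 2.10 (1.80 ± 0.19). Its lowest array of experiment 2 lay above its highest array of experiment 1.

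In the other large rises every pair was higher in experiment 2, and the ranges of the experiments overlapped in all of those named next but Gm6377. Nog, a secreted antagonist of bone morphogenetic proteins, rose by 2.09 ± 0.20 and Jam2, a junctional adhesion molecule, by 2.13 ± 0.18. Nog was well above background on 1 array of experiment 1 and 4 of experiment 2, and Jam2 on 2 and 3, so their sizes rest partly on values near background. Ccr10, a chemokine receptor, rose from −6.35, −6.81, −1.14 and −1.65 to −3.94, −4.64, 0.29 and 0.16 (1.96 ± 0.19), with 2 arrays of each experiment well above background, so 18-81 was the higher line in both experiments. Gpr183, an oxysterol receptor that guides B cells, rose by 1.88 ± 0.45 but was well above background on only 1 array of experiment 1 and 3 of experiment 2. Fam13c rose by 2.99 ± 0.68 (1.45 in 70Z/3 and 4.52 in 18-81), and was well above background on 2 arrays of experiment 1 and 4 of experiment 2. Gm6377 rose by 1.95 ± 0.44 (0.93 in 70Z/3 and 2.96 in 18-81). The line difference was called for neither gene (limma adjusted p = 0.42). With the brightness and GC trends described below removed, the adjusted p (limma) of Fam13c, Gm6377 and Gpr183 was 0.053, 0.055 and 0.062.

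The genes that fell most included Sap25, a component of the Sin3 corepressor complex. It read 0.61, 0.47, 0.39 and 0.33 in experiment 1, a range of under 1 log2 unit, and −3.02, −0.94, −1.95 and −3.33 in experiment 2 (−2.76 ± 0.40, limma adjusted p = 0.027). Vamp1, a vesicle fusion protein, had −2.14, −2.27, −2.04 and −2.06 against −4.33, −3.36, −4.73 and −4.74 (−2.16 ± 0.29). In both genes the 4 arrays of experiment 1 lay close together, those of experiment 2 were spread, and the 70Z/3 miR-125b pair differed least. The 70Z/3 miR-125b pair also differed least for Rhbdl1, a rhomboid-family protein (−2.35 ± 0.25), and for Mamdc4, which read −0.37, −0.33, −0.31 and −0.37 in experiment 1 and −2.76, −1.01, −1.96 and −3.57 in experiment 2 (−1.98 ± 0.40). A probe of Mamdc4 that starts under 100 bases away gave −1.76.

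Further large falls were those of Ssh3, a phosphatase of the actin regulator cofilin (−2.33 ± 0.45), and Ppp1r32 (−2.47 ± 0.25). Lrp1, a large endocytic receptor, fell by 2.06 on the log2 scale and Ctxn1, a membrane protein best known from neurons, by 2.15. Dusp5, a nuclear phosphatase that inactivates the kinase ERK, read −1.46, −0.54, 1.00 and 0.69 against −2.48, −1.64, −2.29 and −1.79 (−1.97 ± 0.41). Its arrays did not overlap between experiments, and the drop was deeper in both 18-81 pairs than in both 70Z/3 pairs. Cbln2 (−2.23 ± 0.36), Gm3715 (−2.02 ± 0.42) and the pseudogene Pisd-ps3 (−1.99 ± 0.19), whose probe may not separate it from its parent gene, complete the 12. Ppp1r32, Rhbdl1, Cbln2, Vamp1, Lrp1 and Gm3715 were well above background on 4 arrays of experiment 1 and on 1 of experiment 2, so their size on the other arrays is set by values near background.

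**Figure D1:**
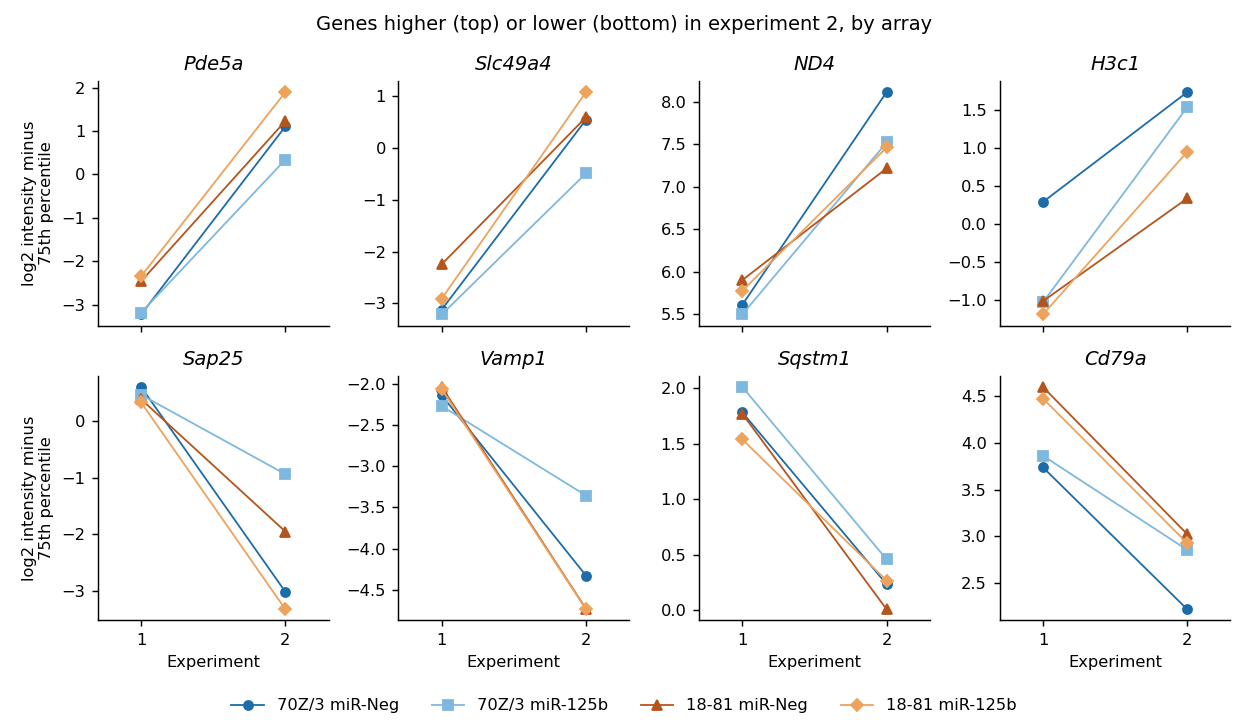
Log2 intensity minus the array's 75th percentile (vertical axis, a separate range per gene) in experiments 1 and 2 (horizontal axis) for 8 called genes, with 1 line per matched pair of arrays. Each of the 4 lines rises in the top panels (average 3.95 for Pde5a, 3.30 for Slc49a4, 1.89 for ND4, 1.87 for H3c1) and falls in the bottom panels (−2.76 for Sap25, −2.16 for Vamp1, −1.53 for Sqstm1, −1.41 for Cd79a).

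Transcripts of the mitochondrial genome stood farthest above the other genes. Each of the 12 tested exceeded the median gene, and 11 were called higher and none lower, against 19.6% of all genes called higher. Their median per array was 6.24, 6.09, 6.12 and 6.00 in experiment 1 and 8.46, 7.45, 6.74 and 7.25 in experiment 2. The 2 experiments did not overlap, and the list median exceeded that of all genes by 1.20 (1.63, 1.29, 0.46 and 1.11 in the 4 pairs). ND4, a subunit of respiratory complex I, went from 5.61, 5.49, 5.90 and 5.77 to 8.12, 7.52, 7.22 and 7.46 (1.89 ± 0.21, limma adjusted p = 0.027). CYTB, the cytochrome b of complex III, read 6.87, 6.69, 7.34 and 7.21 against 9.06, 8.45, 8.39 and 8.62 (1.60 ± 0.21), and COX1, the catalytic subunit of complex IV, 8.44, 8.25, 8.74 and 8.63 against 10.4, 9.82, 9.78 and 9.93 (1.47 ± 0.18). These 3 genes did not overlap between experiments. ND6, a complex I subunit read from the opposite strand of that genome, had the largest average (2.33 ± 0.38), with −0.46, −1.14, −0.90 and −0.59 in experiment 1 and 2.27, −0.32, 1.88 and 2.40 in experiment 2. It rose least in the 70Z/3 miR-125b pair. ND3 was not called (0.62, limma adjusted p = 0.087).

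The files place 7 of these 12 probes on the mitochondrial chromosome and 5 (COX2, COX3, ND3, ATP8, ND4L) on chromosome 1, where the nuclear genome holds a copy of mitochondrial sequence that a probe cannot separate. The median average difference was 1.49 for the 7 and 0.89 for the 5. ND5 (1.34 ± 0.12), another complex I subunit, was among the 7. The list was chosen after its members' values were seen, and its medians are a description.

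Replication-dependent histones, the histones made while DNA is copied, formed the next group. Of 40 tested, 34 were called higher and none lower, against 19.6% and 6.1% of all genes, and 38 exceeded the median gene. The list median was 0.62 above that of all genes (0.71, 0.88, 0.31 and 0.71 in the 4 pairs). H3c1 read 0.29, −1.03, −1.01 and −1.18 in experiment 1 and 1.73, 1.53, 0.34 and 0.95 in experiment 2 (1.87 ± 0.23, limma adjusted p = 0.027). Its highest array of experiment 1 (70Z/3 miR-Neg) stayed just under the lowest of experiment 2 (18-81 miR-Neg). H2bc8, an H2B gene, had −3.54, −3.11, −3.33 and −3.06 against −1.90, −1.38, −2.01 and −1.92 (1.46 ± 0.15). H2bc4 rose by 1.52 ± 0.17, H2bc18 by 1.46 ± 0.16 and H2bc14 by 1.51 ± 0.19, each in all 4 pairs. H4c8 (−0.67) and H2bc6 (−0.44) had values below the median of all genes, neither called. Genes of one histone class share most of their coding sequence, so neighbouring probes may read the same messages and the 40 are not separate measurements.

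Replacement histones, which are made outside DNA replication from tailed messages, stood closer to the other genes, with 3 of 7 called higher and a list median 0.24 above all genes. H3f3a, which encodes the variant H3.3, rose by 0.78 ± 0.12 (0.38 and not called with the trends removed, limma adjusted p = 0.0995), from 6.79, 6.44, 6.14 and 6.21 to 7.50, 7.14, 7.16 and 6.91. Of 26 S-phase genes 4 were called higher and 3 lower, against 19.6% and 6.1% of all genes. The median of the 26 was −0.04 relative to all genes. With the trends removed that median was −0.22, and 0 were called higher and 4 lower, against 5.14% and 5.13% of all genes. Mcm6, a subunit of the replicative helicase, rose by 0.67 ± 0.14 and Pcna, the sliding clamp, by 0.58 ± 0.14, but with the brightness and GC trends removed they were at 0.18 and 0.061 and not called (limma adjusted p = 0.35 and 0.74). Cdc45, which activates the helicase, fell by 0.69 and stayed called. Of 24 genes of mitosis 1 was called higher and 3 lower (median −0.09 relative to all genes). With the trends removed their median was −0.26, and 0 were called higher and 3 lower. Hmmr, a spindle-binding protein, read 3.19, 3.32, 4.06 and 3.92 against 1.58, 2.38, 3.15 and 2.71 (−1.16 ± 0.16), and Cdc25c, the phosphatase that starts mitosis, fell by 1.08 on the log2 scale. Neither gene overlapped between experiments.

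Small nuclear and nucleolar RNAs, which act in splicing and RNA processing, were called higher in 6 of 11 cases and lower in none. Among all genes 19.6% were called higher and 6.1% lower. The median of these RNAs was 0.60 above that of all genes (0.62, 0.29, 0.33 and 0.60 in the pairs). Rnu1b6, a gene of the U1 splicing RNA, read 5.10, 3.50, 4.06 and 4.01 against 6.64, 5.38, 4.90 and 6.42 (1.67 ± 0.26), and 70Z/3 with miR-Neg was the highest array of both experiments. Rnu7, the U7 RNA that processes histone messages, had −1.26, −1.73, −1.42 and −1.30 against −0.45, −0.69, −0.51 and −0.25 (0.95 ± 0.12) without overlap. Rnu2-10, of the U2 type, rose by 1.56 ± 0.22 and Rnu3b1, of the U3 type, by 1.22 ± 0.16. Rpph1 (−0.06), Snora47 (0.02) and Snord123 (0.07) were not called. These RNAs exist in near-identical copies that a probe may not separate.

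Ribosomal proteins and the nuclear-encoded respiratory chain were called higher in large shares, with smaller differences. Of 38 ribosomal protein genes 31 were called higher and none lower, against 19.6% and 6.1% of all genes. Of the 38, 37 exceeded the median gene, and the list median was 0.34 higher than that of all genes (0.37, 0.30, 0.27 and 0.28 in the pairs). Rpl5, a protein of the large subunit, read 7.84, 7.72, 7.66 and 7.78 against 8.60, 8.18, 8.47 and 8.38 (0.66 ± 0.13), without overlap. Of 32 respiratory chain genes 22 were called higher and none lower, against those same shares of all genes. Their list median was 0.40 above that of all genes. Ndufa9, a complex I subunit, had 5.32, 5.18, 5.21 and 5.26 against 6.37, 5.67, 6.11 and 6.32 (0.88 ± 0.15), without overlap. Uqcrfs1, the iron-sulphur protein of complex III, rose by 0.92 ± 0.16. Both lists are bright, with median intensities of 9.28 and 6.74 against 0.75 for all tested genes. When genes were cut into 10 equal classes by brightness, 53.3% of the brightest class were called higher and 0.75% lower.

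**Figure D2:**
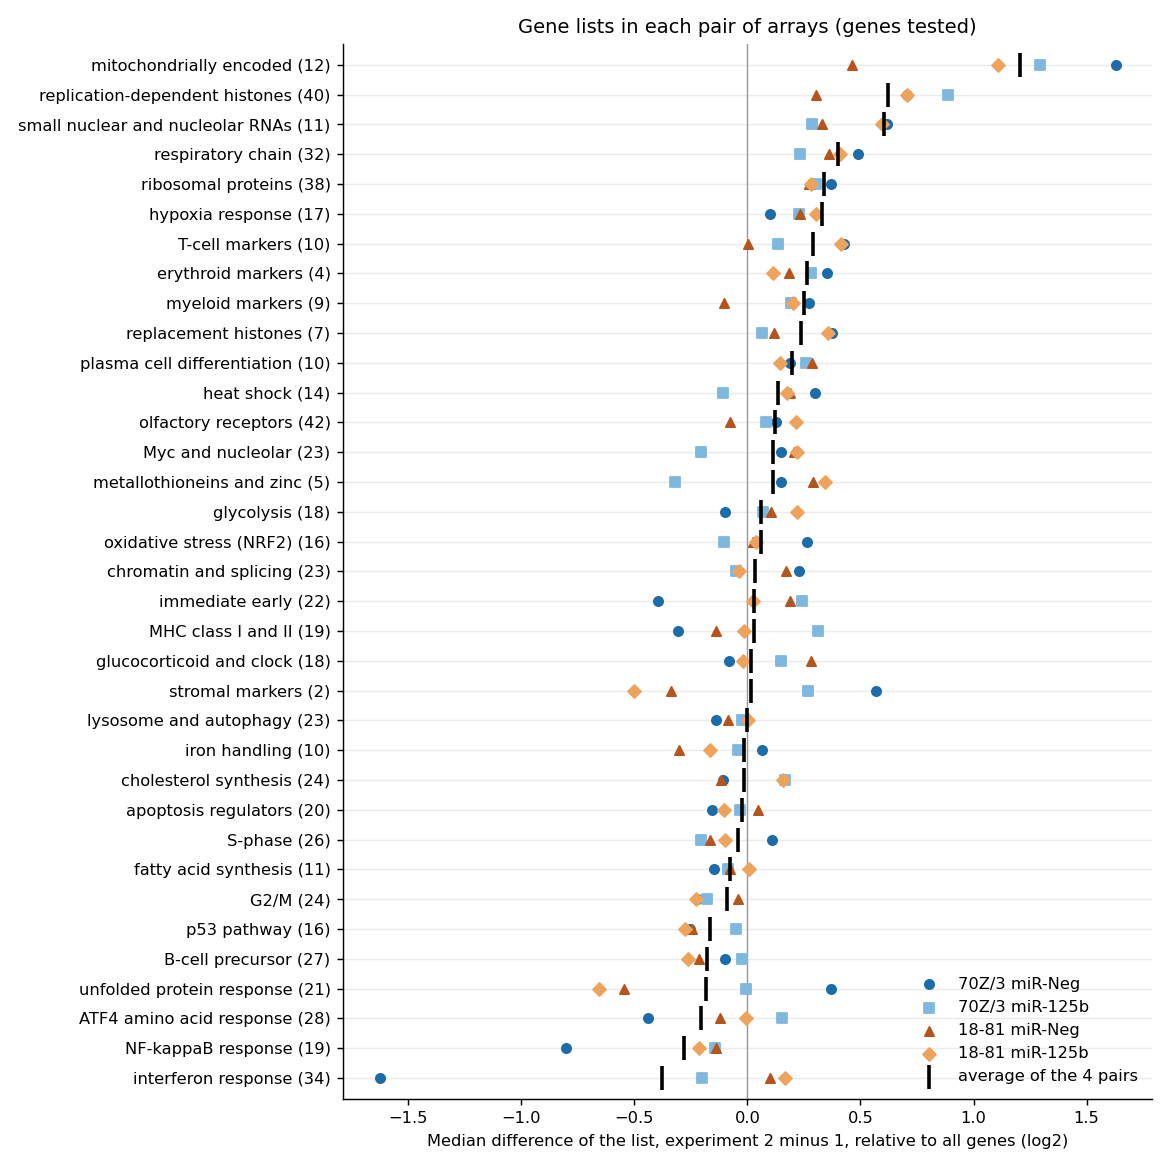
Median difference (experiment 2 minus 1, log2, horizontal axis) of each of 35 gene lists relative to the median of all genes, in each of the 4 matched pairs (coloured symbols) and on average (black bars), with the number of genes tested in parentheses. The mitochondrially encoded genes have the highest average, 1.20, and the interferon list spreads from −1.63 in the 70Z/3 miR-Neg pair to 0.17 in the 18-81 miR-125b pair.

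The difference between the experiments followed how bright a gene was. With the genes ranked by mean intensity over the 8 arrays and cut into 10 equal classes, class 1 the dimmest, the median average difference was 0.18 in class 1, 0.059 in class 4 and 0.49 in class 10. In class 10, 53.3% of the genes were called higher and 0.75% lower, while in class 5 the shares were 13.2% and 11.4%. The brightest class stood highest in all 4 pairs, at 0.62, 0.36, 0.47 and 0.50. Across the 18772 genes the Spearman correlation of the average difference with brightness was 0.23 (0.23, 0.050, 0.20 and 0.18 in the pairs), and it was weakest in the 70Z/3 miR-125b pair. Genes are not independent replicates, and these values describe the arrays.

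Probe GC content had a smaller relation, and it was not monotone. Probes of 33.3 to 36.7% GC had a median difference of 0.29, those of 53.3 to 56.7% had 0.083, and the 375 probes of 58.3% or more had 0.31. Among genes called higher and lower, the median probe GC was 41.7% and 45%, against 43.3% for all genes tested. The Spearman correlation with GC was −0.12 on average and −0.07, −0.07, −0.21 and −0.05 in the pairs, so the 18-81 miR-Neg pair had the steepest fall. In that pair the probes of 53.3 to 56.7% GC had a median of −0.027, while the other 3 pairs had 0.14, 0.077 and 0.15.

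**Figure D3:**
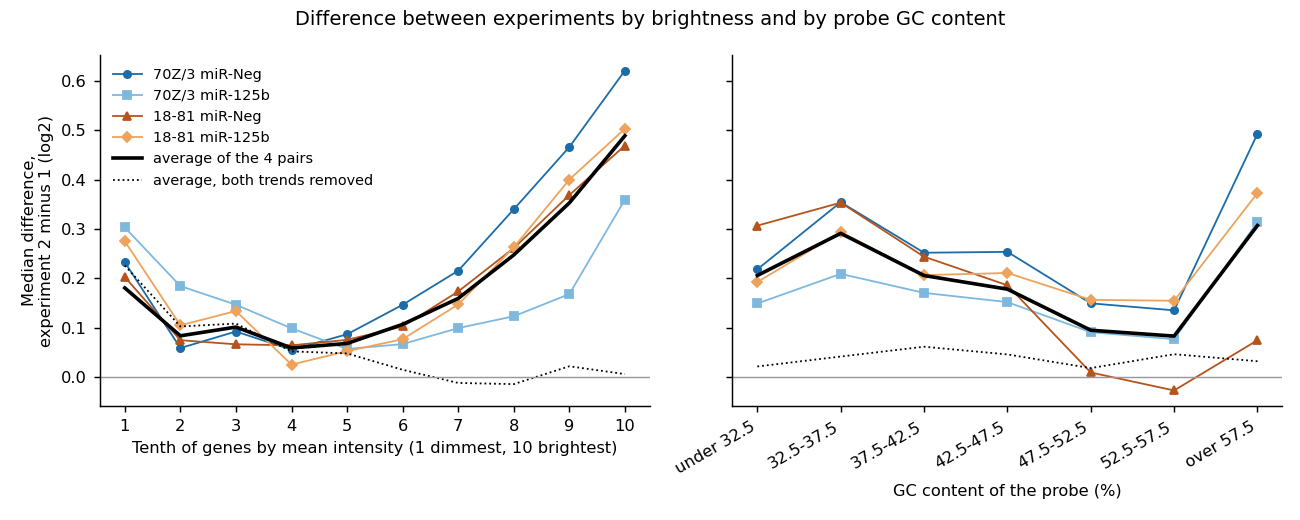
Median difference between experiments (log2, vertical axis) by class of brightness (left, 10 classes) and by GC content of the probe (right), in each of the 4 pairs, on average (thick line) and on average with both trends removed (dotted line). The average rises from 0.059 in class 4 to 0.49 in class 10, and after removal classes 5 to 10 lie between −0.014 and 0.048, while class 1 is at 0.23.

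Both trends were then removed from each array, brightness first, and the fit was repeated. It called 964 genes higher (5.14%) and 963 lower (5.13%), of which 944 (5.03% of all genes) and 800 (4.26%) had been called in that direction before. The ribosomal proteins went from 31 called to 0, and their median from 0.34 above all genes to −0.08. The respiratory chain went from 22 to 0 and from 0.40 to 0.12, and the replacement histones from 3 to 0 and from 0.24 to 0.02. After removal the 3 medians lay between −0.08 and 0.12 from all genes. The trends were estimated over genes that include these lists, and the dimmest class of brightness remained at a median of 0.23, against 0.18 before.

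Other groups kept most of their distance. The mitochondrially encoded genes stood 0.88 above all genes with 5 of 12 called, the replication-dependent histones 0.57 with 16 of 40, and the small nuclear and nucleolar RNAs 0.40 with 5 of 11, against 5.14% of all genes called higher. The retention was uneven. For the mitochondrial list the 18-81 miR-Neg pair fell to 0.08 above all genes. The 7 probes placed on the mitochondrial chromosome went from a median difference of 1.49 to 0.95, and the 5 placed on chromosome 1 from 0.89 to 0.26. Among the histones H3c1 kept 1.86, H2bc8 1.46 and H2bc4 1.40. The bright H2A genes H2ac12, H2ac15 and H2ac19 went to −0.16, −0.18 and −0.14. Of the single genes, Pde5a kept 3.86, Slc49a4 3.32, ND6 2.23, Sap25 −2.67 and Vamp1 −2.12, all still called. Of the 24 genes with the largest differences, 21 were called with both trends removed. Of all 4821 genes called as fitted, 1744 were called again. The 24 were chosen for differences far larger than the trends, so their signs could not easily change.

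**Figure D4:**
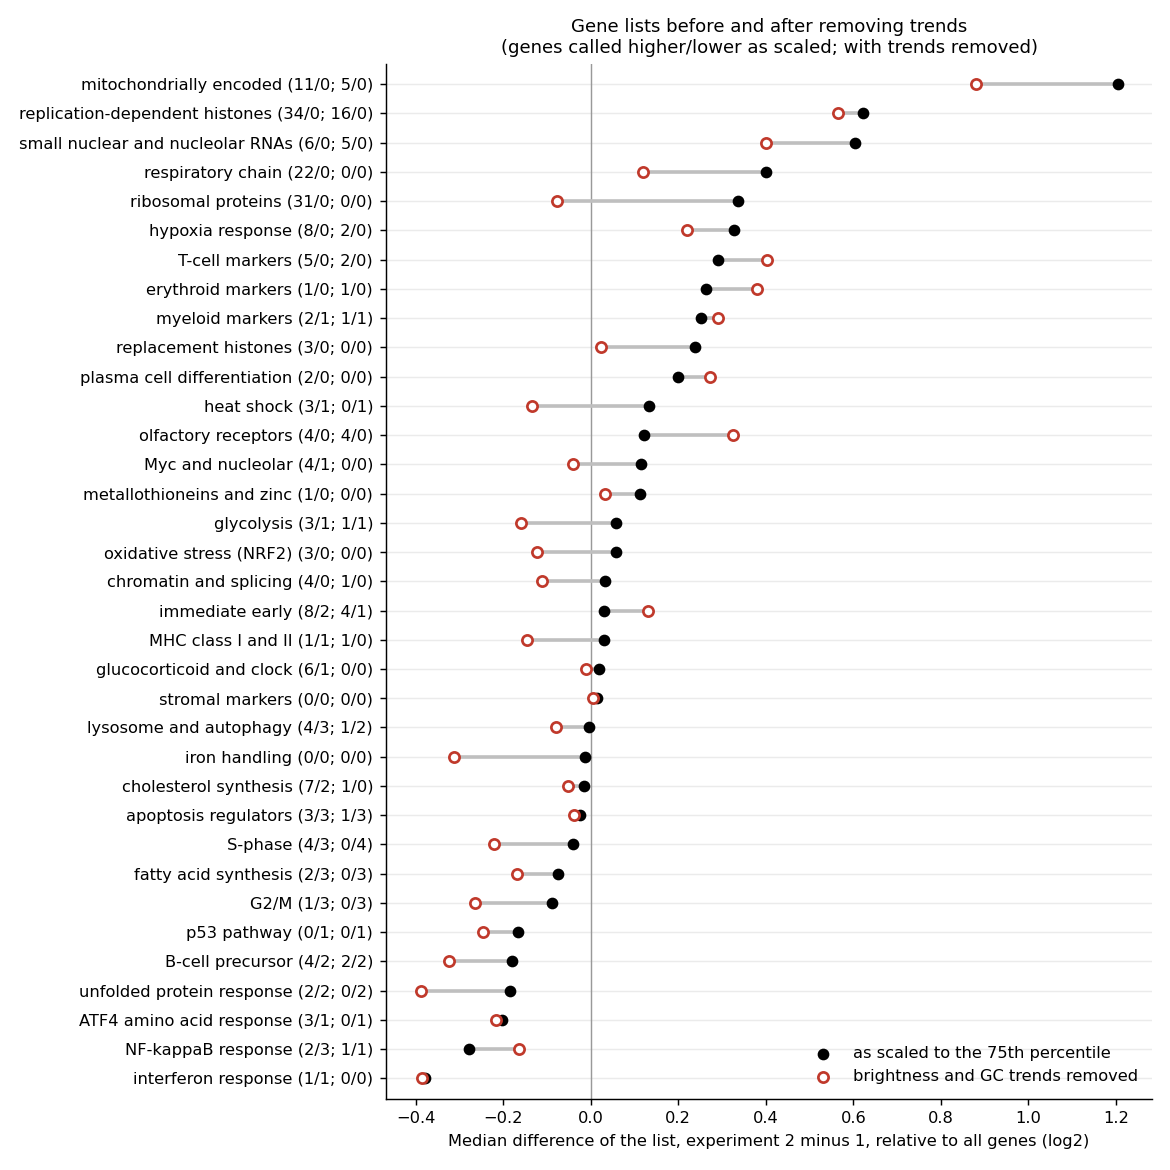
Median difference of each gene list relative to all genes (log2, horizontal axis) as scaled to the 75th percentile (black) and with the brightness and GC trends removed (open red), with the genes called higher and lower before and after in parentheses. The ribosomal proteins move from 0.34 to −0.08, while the mitochondrially encoded genes move from 1.20 to 0.88 and the replication-dependent histones from 0.62 to 0.57.

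The share of probes that hold a short motif also differed between all genes called higher and all called lower. The letters AATAAA, which form the common polyadenylation signal and so tend to mark probes near a message's end, were present in 14.1% of the tested probes, 17.3% of those called higher and 7.16% of those called lower. Among genes called more than 1 log2 unit higher the share was 10.9%, and among those more than 1 log2 unit lower 6.82%. Both lay below the share of all tested probes, so the larger rises did not carry the motif more often. Only the probe's own strand was read for it. The reshuffled letters AAATAA, which can overlap with it, gave 7.41, 8.43 and 4.37%, and the reverse complement TTTATT gave 4.22, 3.89 and 3.23%. Among probes of up to 36.7% GC the median difference was 0.35 with AATAAA and 0.27 without, and among probes of 48.3% GC or more 0.26 and 0.10. Probes with AAATAA but not AATAAA had 0.20 in the first class (169 probes). In the second class they had 0.48, above the probes with AATAAA, but numbered only 25. Probes with AATAAA were also brighter than those without it in both classes (1.90 against 1.10, and 2.21 against −0.19), and the part of brightness was not tested. The letters in a probe do not show that a site is used.

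Different probes of one gene gave different answers when they lay far apart. For 3489 genes with a second probe that passed the filter, the correlation of the average differences between the brightest and the next probe was 0.49 across genes. It was 0.88 for 370 genes whose probes start under 100 bases apart, 0.70 for 524 at 100 to under 500 bases, 0.46 for 931 at 500 to under 2000 bases and 0.35 for 1639 at 2000 bases or more. Among called genes past 1 log2 unit, the second probe lay on the same side of the median of all genes for 31 of 33 genes that fell and 33 of 43 that rose. These are 93.9% and 76.7%, against 66.3% of all 3489 genes. The 2 probes correlated at 0.36 (Pearson) among the genes that fell and at 0.06 among those that rose. The second probe's median distance from the median of all genes was 0.65 over these 76 called genes, against 1.09 for the first, which had been chosen as called.

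The hypoxia genes that were called rose, but not every member did. Of 17 hypoxia genes, which respond to low oxygen through HIF, 8 were called higher and none lower, with a median 0.33 above all genes and 0.22 with the trends removed (2 called). Relative to the median gene 13 lay above and 4 below. Vegfa, among those below, was at −0.64 and not called (limma adjusted p = 0.051), and at −0.87 with the trends removed. Ankrd37, a HIF target, read 1.95, 2.00, 4.62 and 4.60 against 3.02, 3.67, 5.97 and 6.00 (1.37 ± 0.14). The rise was seen in each pair, and the lines differed more than the experiments. The glucose transporter Slc2a1 rose by 1.10 ± 0.14 and the mitophagy receptor Bnip3 by 0.94 ± 0.14. With trends removed Bnip3 was at 0.56 (limma adjusted p = 0.058). Of 18 glycolysis genes 3 were called higher and 1 lower, shares near the 19.6% and 6.1% of all genes. Hk2, the hexokinase that starts glycolysis, went from 2.92, 3.28, 2.52 and 2.37 to 3.84, 4.15, 4.03 and 4.00 (1.23 ± 0.18), whereas Pfkl, a phosphofructokinase, fell by 0.67.

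Immediate early genes, which respond to growth signals within minutes, were called in both directions, 8 higher and 2 lower of 22, against 19.6% and 6.1% of all genes. Their median was 0.03 from all genes. Dusp6, a phosphatase of ERK, rose from 6.24, 6.02, 5.59 and 5.61 to 7.52, 7.09, 6.50 and 6.53 (1.04 ± 0.13), and Egr1, a zinc finger factor, rose by 1.12 ± 0.31. Dusp5 fell, as given above, and Fos was not called (limma adjusted p = 0.99). Dusp6 and Dusp5 thus moved apart in the same arrays, and with trends removed they differed by 0.66 and −1.88. Of 19 NF-kappaB genes 2 were called higher, a smaller share than the 19.6% of all genes, and 3 lower, a larger share than the 6.1%. Tnfaip3, an inhibitor of the pathway, rose by 1.05 ± 0.19 and its inhibitor Nfkbia by 0.68 ± 0.13. The cytokine Tnf read 1.96, 1.97, 2.19 and 1.79 against 1.26, 1.38, 0.49 and 0.39 (−1.10 ± 0.22), and the subunit Nfkb1 fell by 0.92, both lower in all 4 pairs. With trends removed Egr1 (0.72), Nfkbia (0.48) and Nfkb1 (−0.87) were not called (limma adjusted p = 0.19, 0.076 and 0.051).

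Of 24 cholesterol synthesis genes 7 were called higher and 2 lower, and their median was −0.02 relative to all genes. Sc5d, a sterol desaturase, went from 3.52, 3.63, 3.18 and 3.54 to 4.40, 4.31, 4.41 and 4.49 (0.94 ± 0.14) without overlap, and Hmgcs1, an early enzyme of the pathway, rose by 0.88 ± 0.19, but was at 0.51 and not called with the trends removed (limma adjusted p = 0.14). Of 11 fatty acid synthesis genes 2 were called higher and 3 lower, among them Elovl6, a fatty acid elongase (−1.32 ± 0.29), and the desaturases Fads1 (−0.64) and Fads2 (−0.85). Among 23 lysosome and autophagy genes 4 were called higher and 3 lower, against 19.6% and 6.1% of all genes. Sqstm1 (p62), the receptor that brings cargo to autophagosomes, read 1.78, 2.01, 1.77 and 1.54 against 0.23, 0.46, 0.01 and 0.27 (−1.53 ± 0.13). Lamp2, a lysosome membrane protein, rose by 1.07 ± 0.15. Neither Sqstm1 nor Lamp2 overlapped between experiments.

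Of 27 B-lineage genes 4 were called higher and 2 lower, shares near the 19.6% and 6.1% of all genes. Their median was −0.18 relative to all genes, and −0.32 with the trends removed (2 called higher and 2 lower). Cd79a, a signalling chain of the B-cell receptor, read 3.74, 3.86, 4.60 and 4.47 in experiment 1 and 2.22, 2.86, 3.03 and 2.93 in experiment 2 (−1.41 ± 0.15, limma adjusted p = 0.027). All 4 arrays of experiment 2 lay below all 4 of experiment 1. Syk, the kinase that acts next to it, fell by 1.53 on the log2 scale, with a limma adjusted p of 0.056 once the trends were removed. Dntt, which adds nucleotides during recombination, had 1.33, 2.26, −2.06 and −2.12 against 1.64, 3.66, −0.99 and −0.64 (1.06 ± 0.22), and the repressor Bcl6 rose by 1.15 ± 0.20. In both Dntt and Bcl6 the line set the level and every pair moved up. Of 10 T-cell marker genes that passed the filter 5 were called higher (Lck 1.04, Cd3d 1.09, Cd3g 1.22, Lat 0.72, Cd5 0.70) and none lower, and Cd3g was above background on only 2 arrays of each experiment. With the trends removed Lck, Cd3d and Cd3g were not called (limma adjusted p = 0.076, 0.057 and 0.058). The median of that list was 0.29 above all genes, and −0.01 when dim probes were kept. Plasma cell genes included Jchain, the joining chain of antibodies, which was well above background on 2 arrays of each experiment and rose by 1.34 ± 0.35 on average over both lines (limma adjusted p = 0.065 with the trends removed). Its 18-81 arrays read 3.19 and 3.11 against 5.27 and 5.30, and its 70Z/3 arrays −6.40 and −6.89 against −5.74 and −6.48.

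Some list medians rested mainly on 1 pair. The interferon list, 34 genes that sense and block foreign RNA, stood 0.38 below all genes on average, but this rested on the 70Z/3 miR-Neg pair (−1.63, against −0.20, 0.10 and 0.17 in the others). Only Oas2 (−1.46 ± 0.37) was called lower and Oas1b higher (0.43 ± 0.12). With the trends removed neither was called (−1.42, limma adjusted p = 0.054, and −0.017, adjusted p = 0.92), and Oas2 was well above background on 1 array of experiment 2. Isg15, a ubiquitin-like antiviral protein, read 3.64 and 1.90 in 70Z/3 with miR-Neg, 4.73 and 4.31 in 70Z/3 with miR-125b, and 1.12 and 1.29, then 1.41 and 1.57, in the 18-81 pairs (average −0.46, limma adjusted p = 0.34). Without either array of the 70Z/3 miR-Neg pair the list median was −0.17. The NF-kappaB list was below all genes in all 4 pairs, most in the same pair (−0.80, against −0.15, −0.14 and −0.21 in the others), and its median without that pair was −0.14.

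The unfolded protein response, the chaperones and folding enzymes of the endoplasmic reticulum, had medians of different size in the lines, a difference that was not tested. Its median was 0.37 and −0.01 relative to all genes in the 70Z/3 pairs and −0.55 and −0.66 in the 18-81 pairs. With the trends removed each was lower, at 0.25 and −0.08 in the 70Z/3 pairs and −0.73 and −0.78 in the 18-81 pairs. Hyou1, a chaperone of that compartment, had 0.14, 0.47, 1.46 and 1.13 against −0.83, −0.17, −0.47 and −0.33 (−1.25 ± 0.23), and fell more in the 18-81 pairs. Canx, the lectin chaperone calnexin, rose by 0.74 ± 0.15 and the transcription factor Xbp1 by 0.88 ± 0.13, while the sensor Atf6 fell by 0.77. With the trends removed Canx, Xbp1 and Atf6 were not called (limma adjusted p = 0.12, 0.072 and 0.067).

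**Figure D5:**
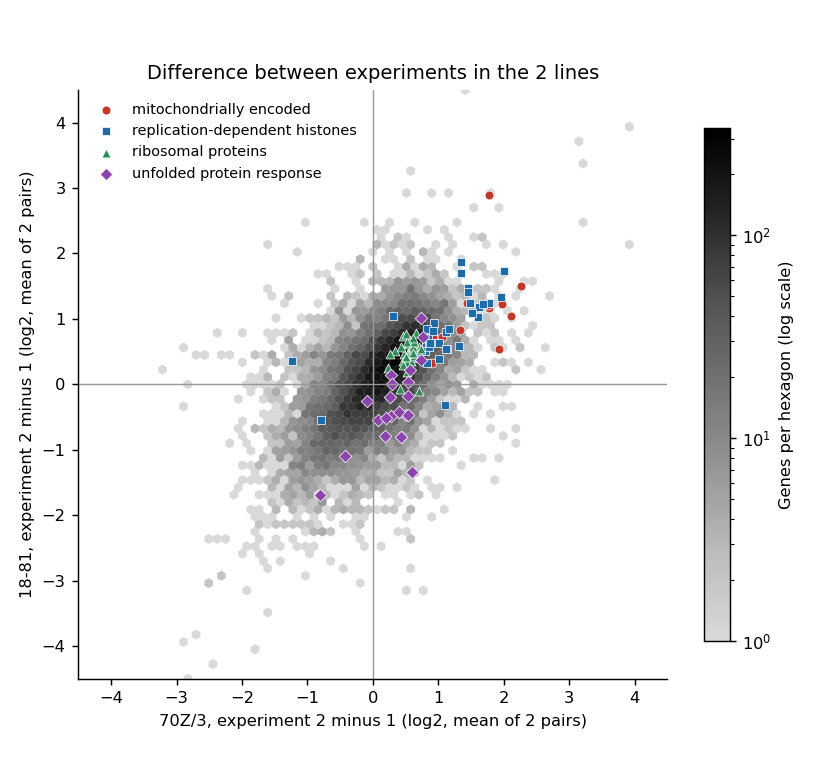
Difference between experiments (log2) in 70Z/3 (horizontal axis) and in 18-81 (vertical axis), each the mean of 2 pairs, for all 18772 genes as shaded hexagons and for the members of 4 gene lists as symbols. Mitochondrial and histone genes lie up and to the right, ribosomal proteins sit in a tight cluster near 0.54, and the unfolded protein response falls below the diagonal, with 18-81 medians of −0.55 and −0.66 relative to all genes.

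Across the 18772 genes the differences of any 2 pairs, which share no array, correlated at 0.37 to 0.65 (Pearson), highest between the 18-81 pairs (0.65), with a range of 0.36 to 0.64 after the trends were removed. Within one line the test had only 2 pairs. No gene was called in 70Z/3 or in 18-81 alone (limma; smallest adjusted p 0.16 and 0.057), with 5118 (27.3%) and 6153 (32.8%) at an unadjusted p under 0.05. With an intensity trend in the variance limma called 977 and 3339. The difference of the effect between lines was called for 0 genes, with 1480 (7.88%) at an unadjusted p under 0.05, and that between duplexes for 0, with 306 (1.63%). After normexp background correction 1 gene was called for the lines.

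The genes with the smallest p for the line difference, none of them called (limma adjusted p = 0.42), had larger differences in one line or differences of opposite sign. Slfn2, a schlafen-family gene, read −2.94 and −3.27 against −0.79 and −1.07 in 18-81, and −4.42 and −4.47 against −4.41 and −4.32 in 70Z/3. It was well above background on 2 arrays of each experiment. Abcb9, a lysosomal peptide transporter, went from −2.38 and −1.05 to 0.10 and 1.14 in 18-81 and from 2.46 and 2.41 to 2.76 and 2.41 in 70Z/3. Syndig1l went from 1.98 and 2.05 to −1.01 and −1.33 in 18-81 and from −6.10 and −6.60 to −5.08 and −6.19 in 70Z/3, with 2 arrays of each experiment well above background. Cd36, a fatty acid receptor, differed by −1.69 in 18-81 and 1.02 in 70Z/3. Its 70Z/3 arrays read −6.02 and −4.65 against −4.90 and −3.73. It was well above background on 2 arrays of experiment 1 and 3 of experiment 2, so its rise in 70Z/3 rests on values near background. For the duplex difference the genes with the smallest p included Vmn1r219, Oip5os1, Bpifa5, Mro and Gm6684, at an adjusted p of 1 (limma).

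A few probes were seen in one experiment only. Of 55681 probes 75 were well above background on all 4 arrays of experiment 1 and on none of experiment 2, and 8 the reverse, against 19146 on all 8 arrays. Bounds here set the mean of the bright experiment against a floor on each dim array, either what the probe read there or the lowest signal of any probe well above background, whichever was larger. The probe of Dna2, a nuclease of DNA replication, was at least 3.14-fold higher in experiment 1, that of Efnb3, a membrane ligand of Eph receptors, at least 2.89-fold and that of Preb, a factor of vesicle budding, at least 2.50-fold. In the other direction 1700022A21Rik was at least 9.52-fold and Fam110c at least 3.48-fold higher in experiment 2. Dna2 and Preb also had a tested probe, which differed by −0.93 (called) for Dna2 and by −0.09 (limma adjusted p = 0.61) for Preb.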

How the data were processed

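Per the file headers, the authors read 8 one-colour Cy3 arrays of 1 slide with Agilent Feature Extraction, version 10.7.3.1, on a design whose probe positions are in mm9. The deposited processed intensity of a spot had its background subtracted and spatial trends removed, per the file headers. Per the labels, each sample gave 0.2 µg of RNA with an integrity number of 9. The deposited series table, an alternative here, holds linear intensity with column medians of 14.6 to 14.7 and 1 shared maximum, uncentred by gene. How the authors normalized it is not stated.

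Control spots and outlier spots (140 to 203 of 59305 per array) were left out, and 0 were saturated. Spots of a probe were averaged as log2 intensity minus the 75th percentile of the array. RefSeq (GRCm38.p6) named 26525 probes by accession, 3786 by symbol and 716 by older symbol, and 24654 of 55681 kept their deposited name. Testing required a probe well above background on the 2 arrays of some group, and the brightest such probe stood for its gene. limma 3.58.1 in R 4.3.3 fitted 4 group means with 1 experiment term (3 residual degrees of freedom) or 1 term per line or duplex (2), after it was tested on simulated data. Arrays limit precision by their number, and p-values measure only the spread of the difference over these 4 pairs, since no label says that a pair came from separately kept cells.

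Brightness was removed by cyclic loess (3 iterations) and GC by medians of GC classes. Members and lists were chosen with earlier results of these data known. The mitochondrial, small RNA and replacement histone lists were chosen, and histone names updated, after values were seen. The rule for named genes took genes with a symbol: the 12 largest differences per direction among called genes with 1 sign in all 4 pairs, 5 per direction for the line difference and 3 for the duplex difference by smallest p, up to 4 per list by smallest p, and 16 fixed genes, of which Hspa1a and Rag1 did not pass the filter. Other members were picked after their values were seen, and some genes the rule names are not reported here. Alternatives were normexp (offset 50), median or quantile scaling, the series table, trend removal, filters, the mean of a gene's probes, an intensity trend in the variance, other designs and leaving out each array.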

Additional observations from a re-analysis of the deposited data

How the results depend on the processing

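By replicate number, no paired analysis was possible because a block on the replicate number would remove the experiment itself, which is what is compared. The fit was instead paired within each group, with the matched pairs described above. The average comparison called 4821 genes as fitted, and 7154, 4531, 5832, 4336, 5956 and 3238 with normexp, median scaling, detection on all arrays, the mean of probes, an intensity trend in the variance and line as the only covariate. It called 1976 with quantile normalization, 1980 in the series table, 2198, 2440 and 1927 with brightness, GC or both trends removed, 12241 of 36288 genes without the filter and 2304 with additive terms. For 70Z/3 the 0 calls became 18 (normexp), 2 (detection on all arrays) and 977 (intensity trend), and for 18-81 they became 3965, 2692 and 3339, and 414 with line only. The line difference gained 1 call with normexp. Leaving out 1 array gave 0 to 2987 calls on average, 0 to 116 in 70Z/3, 0 to 299 in 18-81 and 0 to 29 for the line difference. The 29, 116 and 299 arose without an 18-81 miR-Neg array, and the 116 also without an 18-81 miR-125b array. List medians relative to all genes also moved. In the order quantile, series table, brightness removed, both trends removed and no filter, ribosomal proteins gave 0.022, 0.039, −0.089, −0.077 and 0.17 (0.26 with normexp), the respiratory chain 0.13, 0.14, 0.15, 0.12 and 0.24, hypoxia 0.21, 0.21, 0.19, 0.22 and 0.19, and small RNAs 0.38, 0.38, 0.37, 0.40 and 0.10. Among called genes, Gars turned to −0.031, −0.044 and −0.062 and Hspa8 to −0.037, −0.052 and −0.070 under quantile, series table and brightness removal. With both trends removed Hspa8 was −0.17, Oas1b −0.017, Hspa4 −0.0048 and Vpreb3 −0.091, and Oas1b was −0.031 as the mean of its probes. The cause of these changes was not tested. Genes near background had the least certain sizes.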
